A study of Mus musculus with 12 samples.

Results

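Transcripts of the endoplasmic reticulum (ER) folding machinery, the unfolded protein response (UPR) and the early secretory pathway were examined in EMS404 cells. The 38 genes were chosen by symbol: ER chaperones, disulphide isomerases, degradation factors, UPR sensors and effectors, and parts of the translocon and of vesicle transport. Of these, 37 had a row among the 15720 gene identifiers of the deposited table. Mia3, which helps load bulky collagen cargo into vesicles, had none and is not analysed here. All groups share the EMS404 line, mouse hepatic stellate cells of C57Bl6 origin that carry SV40 for immortalisation and express human TLR4. Cells received an siRNA against Bmal1, the core clock transcription factor encoded by Arntl, or a scrambled siRNA. At 48 h after transfection they were given 10 ng/mL TGFb or vehicle for a further 24 h. The 4 groups, each of 3 libraries, were Bmal1 siRNA with TGFb, Bmal1 siRNA with vehicle, scrambled siRNA with TGFb and scrambled siRNA with vehicle. Results come from a cell line and a single time point.

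Proteins bound for secretion or the cell surface enter the ER through the Sec61 channel, fold with the help of chaperones and disulphide isomerases, and leave in COPII vesicles. When unfolded proteins build up, the membrane sensors IRE1, PERK and ATF6 start the UPR, which raises chaperones and degradation factors and slows translation for a time. Collagen is a large and abundant cargo, and stellate cells that become myofibroblasts secrete much of it. The related ER-bound factors encoded by Creb3l1 (OASIS) and Creb3l2 (BBF2H7) are known in mouse bone and cartilage for their part in collagen production and export.

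Many chaperone promoters carry the ER stress response element (ERSE), a pair of short sites that read CCAAT and CCACG with 9 bases between them. Promoter windows of 250 bases before to 50 after the start, from RefSeq on GRCm38.p6, were at hand for 31 of the 38 genes. An exact ERSE on either strand was present in 9 of them (29.0%), against 39 of 32851 windows of all genes (0.119%). The core of a second element, the UPRE, spelled TGACGTGG, was present in 2 (6.45%), against 222 of all windows (0.676%). For both elements the share in these genes counts genes, and the share over all counts windows, with those of these genes included. A match is a description of the letters and not evidence of binding. The UPRE core and the ERSE share no window among these genes. The ERSE windows are shown with 10 flanking bases on each side and both sites in capitals. An exact search passes over sites that differ by a base, so it does not sort the genes into UPR targets and others. On the opposite strand the sites read CGTGG and ATTGG.
Hspa5, chr2:34772015-34772053, plus strand: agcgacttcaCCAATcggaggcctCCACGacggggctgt
Hsp90b1, upstream copy, chr10:86705628-86705666, minus strand: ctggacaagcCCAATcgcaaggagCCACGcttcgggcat
Hsp90b1, downstream copy, chr10:86705523-86705561, minus strand: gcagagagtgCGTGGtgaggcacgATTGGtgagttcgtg
Calr, chr8:84847065-84847103, minus strand: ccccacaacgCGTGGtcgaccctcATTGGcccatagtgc
Canx, chr11:50325790-50325828, minus strand: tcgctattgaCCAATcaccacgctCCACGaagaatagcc
Pdia6, chr12:17266481-17266519, plus strand: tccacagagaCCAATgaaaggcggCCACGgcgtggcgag
Dnajc3, chr14:118937817-118937855, plus strand: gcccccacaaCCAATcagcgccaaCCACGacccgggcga
Creld2, chr15:88819510-88819548, plus strand: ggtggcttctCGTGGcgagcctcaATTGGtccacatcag
Syvn1, chr19:6046522-6046560, plus strand: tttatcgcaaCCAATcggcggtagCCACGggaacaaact
Derl3, chr10:75893232-75893270, plus strand: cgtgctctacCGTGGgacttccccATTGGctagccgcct
The UPRE cores, in capitals, lie in the promoters of a COPII coat gene and of a retrieval receptor gene.
Sec24d, chr3:123267460-123267487, plus strand: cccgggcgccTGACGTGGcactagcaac
Kdelr3, chr15:79516368-79516395, plus strand: ggccgccccgCCACGTCAccgcgcggcc

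The deposited values are FPKM, which scale fragments to transcript length and library size, so levels can be compared between genes per length. Depth is unknown, and no counting error can be derived. FPKM totals ran from 445472 to 483957 per library, and replicates correlated at 0.9912 to 0.9983 across genes on the log2(FPKM + 1) scale. The siRNA target Arntl read 5.05, 4.01 and 4.0 FPKM with Bmal1 siRNA and TGFb, 3.90, 3.87 and 3.59 FPKM with Bmal1 siRNA and vehicle, 10.5, 10.8 and 10.9 FPKM with scrambled siRNA and TGFb, and 5.43, 5.19 and 4.91 FPKM with scrambled siRNA and vehicle. It was lower with the Bmal1 siRNA under both treatments. A pair of libraries stood apart: the second Bmal1 siRNA TGFb library had 114 FPKM of smooth muscle actin (Acta2) against 185 and 188 FPKM in the others of its group, and the second scrambled TGFb library had 99.1 FPKM of the interferon gene Isg15 against 15.8 and 32.3 FPKM. Fibroblast markers were abundant (Col1a1 2716 to 4222 FPKM over all libraries), whereas the stellate intermediate filament gene Des reached at most 1.23 FPKM, and Lrat and Reln are not analysed here. The plasma cell genes Jchain, Mzb1, Cd79a and Tnfrsf17, from a cell type rich in these transcripts, summed to 0.15 to 0.21 FPKM in Bmal1 siRNA TGFb, 0.09 to 0.14 FPKM in Bmal1 siRNA vehicle, 0.12 to 0.29 FPKM in scrambled TGFb and 0.05 to 0.20 FPKM in scrambled vehicle libraries. Of the other lineage markers in the table, 3 of 4 leukocyte, 3 of 4 endothelial and the only hepatocyte gene stayed under 1 FPKM in every library. The exceptions were the macrophage gene Cd68, at most 4.71 FPKM, and Eng, a TGFb co-receptor. Eng stood at 76.5 to 85.9 FPKM in Bmal1 siRNA TGFb, 67.2 to 69.6 FPKM in Bmal1 siRNA vehicle, 99.2 to 105 FPKM in scrambled TGFb and 70.8 to 76.1 FPKM in scrambled vehicle libraries. The 4 cholangiocyte genes summed to 5.04 to 7.30 FPKM in Bmal1 siRNA TGFb, 8.08 to 9.65 FPKM in Bmal1 siRNA vehicle, 5.80 to 7.73 FPKM in scrambled TGFb and 7.62 to 8.08 FPKM in scrambled vehicle libraries. The part of Eng and of these sums in the ER gene results was not tested.

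The set covered a wide range of levels. In scrambled vehicle cells the calcium-binding chaperone gene Calr averaged 898 ± 50.1 FPKM (SD, n = 3), the disulphide isomerase gene P4hb 626 ± 0.615 FPKM and its relative Pdia3 367 ± 4.04 FPKM. The transcription factor gene Creb3l1 stood at 274 ± 22.6 FPKM, within the range of the chaperones Hsp90b1 (298 ± 5.19 FPKM) and Hspa5 (252 ± 6.03 FPKM). Its relative Creb3l2 was at 42.5 ± 4.97 FPKM. The sensors were among the lowest: Ern1, encoding IRE1α, at 8.35 ± 0.935 FPKM, Eif2ak3, encoding PERK, at 9.99 ± 0.465 FPKM, and Atf6 at 10.2 ± 0.237 FPKM. Derl3, a degradation factor of strongly secretory tissues, read 0.03 FPKM in 2 of 12 libraries and was listed at 0 in the rest; it was not tested. The other 36 all passed the minimum mean of 0.5 FPKM.

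With scrambled siRNA, TGFb raised UPR sensors and effectors, while most chaperones and every disulphide isomerase missed the threshold. Of the 36 tested genes 14 rose (38.9%) and 2 fell (5.56%), against 16.4% and 29.1% of all 11208 genes tested, 45.5% in both directions together. In RNA of whole cultures, fewer cells of a kind and less RNA per cell cannot be told apart. Their median change was 0.08, against -0.05 for all genes, as differences in mean log2(FPKM + 1). Calls were made with limma at a Benjamini-Hochberg adjusted p under 0.05, the source of every adjusted p given here. All genes split differently after median-of-ratios scaling, with 22.0% higher and 22.8% lower, and then 19 of the 36 rose and 1 fell. The 6 stellate and fibroblast markers summed to 5687 to 6025 FPKM in scrambled TGFb cells and 3661 to 3941 FPKM in scrambled vehicle cells. Col1a1, Col1a2, Pdgfrb and Acta2 were higher in every scrambled TGFb library, whereas the stellate transcription factor gene Hand2 was lower, at 77.1 to 85.6 FPKM in scrambled TGFb cells and 118 to 135 FPKM in scrambled vehicle cells, and Des overlapped. Their part in the ER changes was not tested.

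Among the sensors and effectors 6 of 7 rose. Creb3l1 had 491, 465 and 528 FPKM in scrambled TGFb cells, against 264, 258 and 300 FPKM in scrambled vehicle cells. No library of one group reached into the range of the other, and the change of 0.85 (SE 0.107, adjusted p = 2.77e-05) was the largest of the 36. Ppp1r15a encodes GADD34, the phosphatase subunit that restarts translation after PERK signalling, and shares 12 exon bases with Tulp2. It had 25.4, 26.8 and 28.0 FPKM in scrambled TGFb cells, against 16.2, 15.1 and 15.7 FPKM in scrambled vehicle cells, with no overlap (change 0.74, SE 0.057, adjusted p = 4.6e-07). Creb3l2 had 69.2, 63.1 and 64.6 FPKM in scrambled TGFb cells, against 36.8, 45.4 and 45.3 FPKM in scrambled vehicle cells. These groups were separate too (change 0.62, SE 0.070, adjusted p = 1.02e-05).

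The genes of the IRE1 sensor and of its substrate Xbp1 also rose. Ern1 had 12.7, 11.6 and 11.5 FPKM in scrambled TGFb cells, against 7.27, 8.88 and 8.90 FPKM in scrambled vehicle cells (change 0.47, SE 0.085, adjusted p = 0.000559). Xbp1, whose mRNA IRE1 splices to make an active factor, had 62.8, 72.1 and 73.9 FPKM in scrambled TGFb cells, against 50.8, 53.9 and 50.7 FPKM in scrambled vehicle cells (change 0.42, SE 0.069, adjusted p = 0.000281). In both genes every TGFb library lay above every vehicle library. FPKM per gene does not tell spliced from unspliced Xbp1, and splicing was not tested. Atf6 rose too, averaging 12.6 ± 0.370 FPKM in scrambled TGFb cells and 10.2 ± 0.237 FPKM in scrambled vehicle cells (change 0.28, adjusted p = 0.000911). Eif2ak3 averaged 9.96 ± 0.638 FPKM with TGFb and 9.99 ± 0.465 FPKM with vehicle and was not called (adjusted p = 0.952).

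**Figure D1:**
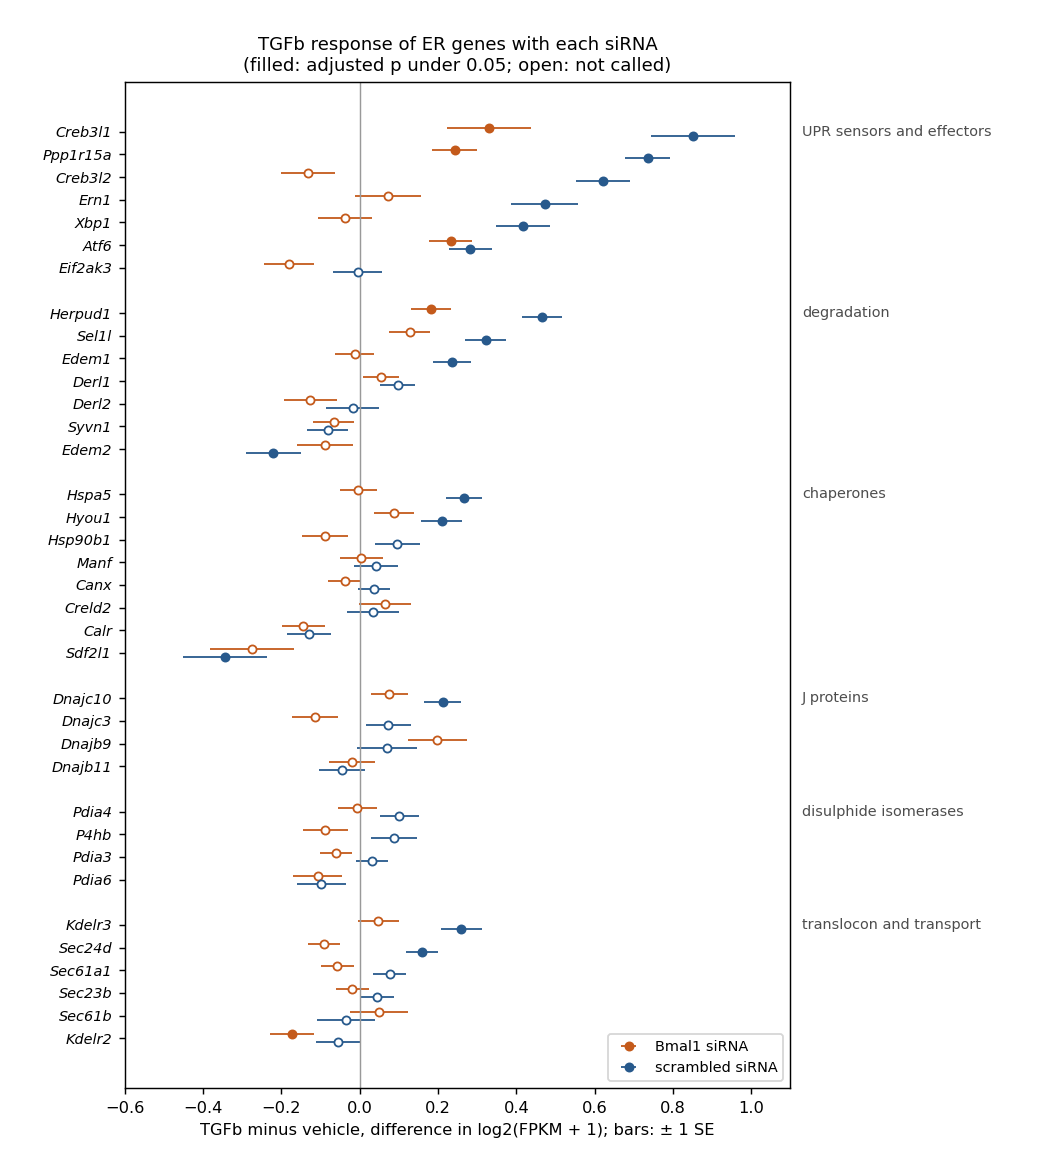
TGFb response of the 36 tested ER genes, grouped by role. The x axis gives TGFb minus vehicle as a difference in log2(FPKM + 1) with ± 1 SE; orange points are Bmal1 siRNA cells and blue points scrambled siRNA cells, filled where the adjusted p was under 0.05. The blue points of Creb3l1, Ppp1r15a and Creb3l2 lie farthest right, at 0.85, 0.74 and 0.62, and the orange points of the same genes at 0.33, 0.24 and -0.13.

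Of 7 tested degradation genes 3 rose and 1 fell in scrambled cells. Herpud1, a stress-induced part of the ER degradation complex, had 92.2, 94.7 and 91.0 FPKM in scrambled TGFb cells, against 69.7, 64.6 and 66.2 FPKM in scrambled vehicle cells. The groups did not overlap (change 0.47, SE 0.051, adjusted p = 8.2e-06). Sel1l, the scaffold of the HRD1 ubiquitin ligase, had 18.4, 17.8 and 17.5 FPKM in scrambled TGFb cells, against 13.1, 14.6 and 14.7 FPKM in scrambled vehicle cells. It also separated the groups (change 0.32, SE 0.053, adjusted p = 0.000273). Edem1, a lectin that hands misfolded glycoproteins to degradation, had 10.4, 10.4 and 10.9 FPKM in scrambled TGFb cells, against 8.44, 9.16 and 8.81 FPKM in scrambled vehicle cells (change 0.24, adjusted p = 0.00162). Its relative Edem2 fell, with 19.7 ± 1.33 FPKM in scrambled TGFb cells and 23.1 ± 1.46 FPKM in scrambled vehicle cells (change -0.22, adjusted p = 0.0211). That call ended with either scaling of the libraries (adjusted p = 0.0735 and 0.0598) and without scrambled TGFb replicate 1 or 3 (0.0779 and 0.069) or scrambled vehicle replicate 3 (0.0951). Syvn1, the HRD1 ligase itself, Derl1 and Derl2 were not called, though Derl1 was called higher with either scaling (0.0131 and 0.0142).

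Chaperones moved little. Hspa5 encodes BiP, the main ER chaperone and the partner that holds the sensors inactive. It had 292, 312 and 306 FPKM in scrambled TGFb cells, against 254, 257 and 245 FPKM in scrambled vehicle cells. The groups were separate and the change was 0.27 (SE 0.047, adjusted p = 0.000452). The BiP exchange factor gene Hyou1 had 70.0, 67.3 and 67.5 FPKM in scrambled TGFb cells, against 60.7, 59.1 and 56.9 FPKM in scrambled vehicle cells (change 0.21, SE 0.052, adjusted p = 0.00522). Sdf2l1, a BiP cofactor gene, went the other way. It had 21.6, 25.4 and 25.4 FPKM in scrambled TGFb cells, against 32.5, 31.2 and 28.8 FPKM in scrambled vehicle cells (change -0.34, SE 0.107, adjusted p = 0.0186). The Sdf2l1 call ended without scrambled TGFb replicate 1 (adjusted p = 0.0783) or scrambled vehicle replicate 1 (0.0668).

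Hsp90b1, Calr, Canx, Manf and Creld2, a set of chaperones and their cofactors, were not called, and their TGFb and vehicle averages differed by ratios of 0.913 (Calr) to 1.069 (Hsp90b1). Of the J proteins, the co-chaperones of BiP, Dnajc10 rose (change 0.21, adjusted p = 0.00235), while Dnajb9, Dnajb11 and Dnajc3 were not called. Of the 4 disulphide isomerases none was called by limma and none had an unadjusted p under 0.05; with median-of-ratios scaling Pdia4 (adjusted p = 0.0161), P4hb (0.0498) and the chaperone Hsp90b1 (0.0391) were called higher, as they were with equal totals (0.0163, 0.0395 and 0.0467). Of the 8 tested genes with an ERSE, 1 rose with TGFb in scrambled cells, the Hspa5 whose element is printed above, and none fell. Of the 21 tested genes with a promoter window but no ERSE, 10 rose and 2 fell. With either scaling Hsp90b1 joined the rising genes with an ERSE, Pdia4 and P4hb joined those without one, and Edem2 left the falling ones. Over all tested genes 16.4% were higher and 29.1% lower, and 8 genes are few to set beside those shares. Both genes with a UPRE core rose, and of the 27 tested genes with a window but no core, 9 rose and 2 fell. A link of these changes to either element was not tested.

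In transport, Kdelr3, a receptor that returns escaped chaperones to the ER, averaged 104 ± 5.66 FPKM in scrambled TGFb cells and 86.9 ± 1.72 FPKM in scrambled vehicle cells (change 0.26, adjusted p = 0.00129). It shares 4 exon bases with Ddx17. Sec24d, the cargo-binding COPII coat subunit, had 75.3, 71.0 and 71.2 FPKM in scrambled TGFb cells, against 62.8, 65.5 and 66.3 FPKM in scrambled vehicle cells. These groups did not overlap (change 0.16, SE 0.041, adjusted p = 0.00632). Its coat partner Sec23b, Kdelr2 and the translocon genes Sec61a1 and Sec61b were not called, though Sec61a1 was with either scaling (adjusted p = 0.0213 and 0.038).

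**Figure D2:**
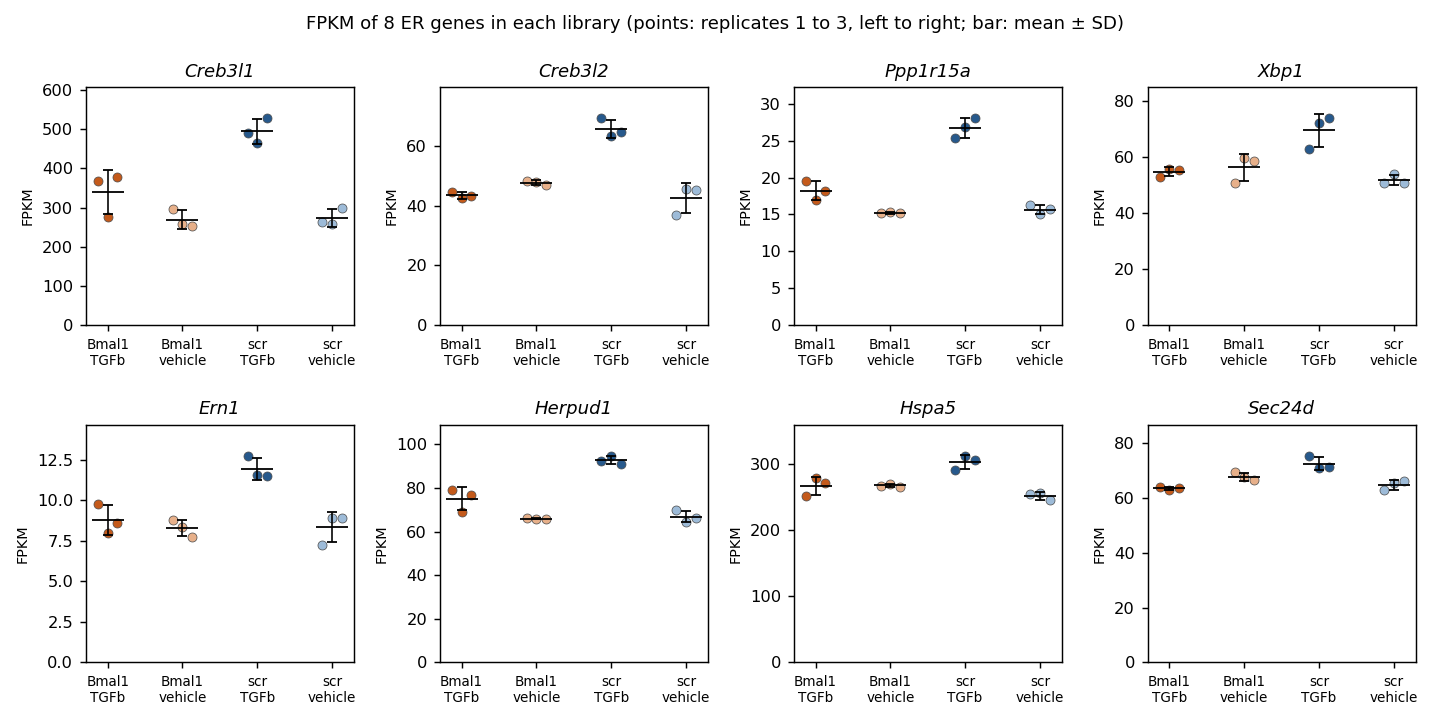
FPKM of 8 ER genes in each library. Points are replicates 1 to 3 of Bmal1 siRNA TGFb, Bmal1 siRNA vehicle, scrambled TGFb and scrambled vehicle cells from left to right, with the mean ± SD, on linear axes from 0. In each panel the 3 scrambled TGFb libraries lie above all other libraries, as for Ppp1r15a, at 25.4 to 28.0 FPKM there and at most 19.5 FPKM elsewhere.

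After Bmal1 siRNA fewer of these genes responded to TGFb. Of the 36, 4 rose (11.1%) and 1 fell (2.78%), against 8.9% and 10.1% of all tested genes (19% together), so the share that rose was near the background. That background itself moved with single libraries, to 13.7% higher and 15.4% lower without Bmal1 siRNA TGFb replicate 2. It was 4.37% higher and 6.03% lower without Bmal1 siRNA TGFb replicate 3, and 5.02% to 5.09% higher without Bmal1 siRNA TGFb replicate 1 or Bmal1 siRNA vehicle replicate 2 or 3. The median was -0.02 for the ER genes and 0.00 for all genes. Ppp1r15a rose, with 19.5, 16.9 and 18.2 FPKM in Bmal1 siRNA TGFb cells and 15.1, 15.4 and 15.1 FPKM in Bmal1 siRNA vehicle cells (change 0.24, SE 0.057, adjusted p = 0.00999). Atf6 averaged 12.6 ± 0.762 FPKM with TGFb and 10.6 ± 0.397 FPKM with vehicle (change 0.23, adjusted p = 0.00978). Those 2 calls ended without Bmal1 siRNA TGFb replicate 1 (adjusted p = 0.0506 and 0.0508).

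Herpud1 had 79.0, 69.1 and 77.0 FPKM in Bmal1 siRNA TGFb cells, against 66.2, 65.9 and 65.6 FPKM in Bmal1 siRNA vehicle cells (change 0.18, SE 0.051, adjusted p = 0.0241). That call was lost in 5 of the 12 leave-out fits, namely those without a Bmal1 siRNA library other than the second TGFb one (0.0535 to 0.108), and with only the groups compared (0.0652). Creb3l1 had 367, 276 and 377 FPKM in Bmal1 siRNA TGFb cells, against 297, 257 and 253 FPKM in Bmal1 siRNA vehicle cells, and the groups overlapped through the second TGFb library (change 0.33, SE 0.107, adjusted p = 0.048). Leaving out single libraries ended that call in 10 of 12 cases (up to 0.2), all but those without Bmal1 siRNA TGFb replicate 2 or Bmal1 siRNA vehicle replicate 1. It was also lost without a filter (0.0927), with either scaling (0.0535 and 0.0653), without a trend (0.0602) and with only the groups compared (0.099). Kdelr2 fell (change -0.17, adjusted p = 0.0469), a call lost in 9 of the 12, all but those without Bmal1 siRNA vehicle replicate 1 or scrambled vehicle replicate 1 or 3. The count itself hung on single libraries: without Bmal1 siRNA TGFb replicate 1 none rose, 2 rose without Bmal1 siRNA TGFb replicate 3 or without Bmal1 siRNA vehicle replicate 2 or 3, and without Bmal1 siRNA TGFb replicate 2, the library low in Acta2, 6 rose and 7 fell. Without scrambled vehicle replicate 1, 3 fell, and none fell in 8 other fits without a library, those without any scrambled TGFb library, scrambled vehicle replicate 2, Bmal1 siRNA vehicle replicate 2 or 3, or Bmal1 siRNA TGFb replicate 1 or 3.

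Under TGFb, the Bmal1 siRNA lowered 11 of the 36 genes (30.6%, against 7.16% of all tested genes) and raised none (against 16%), by limma, where 23.2% of all genes were called in either direction. At an unadjusted p under 0.05, 14 of the 36 were lower and 0 higher, beside 37.1% of all genes in either direction. That all-gene share was not split by direction. The median was -0.08 for the ER genes and 0.06 for all genes. Median-of-ratios scaling moved the all-gene split to 8.9% higher and 10.3% lower, and then 16 of the 36 were lower. Of the sensors and effectors 5 of 7 fell, and Atf6 and Eif2ak3 were not called (Eif2ak3 was called lower with median-of-ratios scaling, adjusted p = 0.0352). Creb3l2 had 44.5, 42.5 and 43.1 FPKM in Bmal1 siRNA TGFb cells, against the 63.1 to 69.2 FPKM of scrambled TGFb cells given above, a change of -0.59 (SE 0.070, adjusted p = 8.83e-05). Creb3l1 fell by 0.55 (SE 0.107, adjusted p = 0.00307), Ppp1r15a by 0.53 (SE 0.057, adjusted p = 4.45e-05), Ern1 by 0.41 (SE 0.085, adjusted p = 0.0048) and Xbp1 by 0.34 (SE 0.069, adjusted p = 0.00419). Ern1 had 9.76, 7.98 and 8.59 FPKM and Xbp1 52.9, 56.0 and 55.5 FPKM in Bmal1 siRNA TGFb cells. For each of these 5 genes, already called on the same libraries, every Bmal1 siRNA TGFb library lay below every scrambled TGFb library.

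Outside the sensors the differences were smaller. Herpud1 was lower by a change of -0.30 (SE 0.051, adjusted p = 0.00117). Hspa5 had 252, 278 and 271 FPKM in Bmal1 siRNA TGFb cells, below all 3 scrambled TGFb libraries (change -0.18, SE 0.047, adjusted p = 0.0136). The Hspa5 call ended without scrambled TGFb replicate 2, the library high in Isg15 (adjusted p = 0.0561), and with only the groups compared (0.0635). Sec24d had 64.0, 63.0 and 63.5 FPKM in Bmal1 siRNA TGFb cells, again with no overlap (change -0.19, SE 0.041, adjusted p = 0.00569). Sec61a1, the channel subunit of the translocon, had 189, 173 and 184 FPKM in Bmal1 siRNA TGFb cells, against 211, 208 and 214 FPKM in scrambled TGFb cells. The groups were separate (change -0.21, SE 0.042, adjusted p = 0.0036), and 549 of its exon bases are shared with the antisense gene Gm44170, which cannot be told apart where strand use is not stated.

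Hyou1 had 63.4, 56.0 and 63.0 FPKM in Bmal1 siRNA TGFb cells (change -0.17, SE 0.052, adjusted p = 0.0352). Edem1 had 9.49, 9.35 and 9.31 FPKM in Bmal1 siRNA TGFb cells (change -0.15, SE 0.049, adjusted p = 0.0407). Both passed narrowly. The Hyou1 call ended without any one scrambled TGFb library, Bmal1 siRNA TGFb replicate 2 or Bmal1 siRNA vehicle replicate 2 (adjusted p 0.0514 to 0.119). For Edem1 the call was lost in 10 of 12 such cases (0.0537 to 0.131), all but those without scrambled vehicle replicate 1 or 2, and with only the groups compared (0.0901; Hyou1 0.0946). Of the 8 tested genes with an ERSE, 1 was lower with the siRNA under TGFb, and of the 21 without one, 7 were. With either scaling Syvn1 joined those with an ERSE (adjusted p = 0.0137 and 0.0233) and Kdelr3 those without (0.0134 and 0.0167). Median-of-ratios scaling alone also added P4hb (0.0441), Eif2ak3 (0.0352) and Sec23b (0.0385), which have a window with neither element. Of the 2 tested genes with a UPRE core 1 was lower in the main fit, and of the 27 without one, 7 were. With either scaling Kdelr3 joined the lower genes with a core. Over all tested genes 7.16% were lower. A link of these changes to either element was not tested. Since this comparison and the TGFb response of scrambled cells share the scrambled TGFb libraries, the values of both are given side by side and their likeness is not scored.

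The test of the difference between the TGFb responses of both siRNAs, the interaction, called 9 of the 36 genes (25.0%) as lower after Bmal1 siRNA, against 5.52% of all tested genes, and none as higher, against 8.86%, by limma (14.4% of all genes in either direction). At an unadjusted p under 0.05, 14 of the 36 were lower and 0 higher, beside 29.5% of all genes in either direction, again not split. The median interaction was -0.12 for the ER genes and 0.06 for all genes, whose split moved to 5.15% higher and 7.03% lower with median-of-ratios scaling, with 11 of the 36 then lower. Creb3l2 had the largest, with a TGFb change of -0.13 after Bmal1 siRNA and 0.62 with scrambled siRNA, a difference of -0.75 (SE 0.098, adjusted p = 0.000372). For Ppp1r15a the changes were 0.24 after Bmal1 siRNA and 0.74 with scrambled siRNA, a difference of -0.49 (SE 0.081, adjusted p = 0.00186). For Xbp1 they were -0.04 after Bmal1 siRNA and 0.42 with scrambled siRNA, a difference of -0.46 (SE 0.098, adjusted p = 0.00898). Hspa5 differed by -0.27 (SE 0.066, adjusted p = 0.0171) and Sec24d by -0.25 (SE 0.058, adjusted p = 0.0127). These 5 calls held in every setting tried.

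Herpud1 (-0.28, SE 0.072, adjusted p = 0.0203) was called in every fit without a single library and lost its call only without both second TGFb libraries (adjusted p = 0.0503). Creb3l1 (-0.52, SE 0.151, adjusted p = 0.0363), Ern1 (-0.40, SE 0.121, adjusted p = 0.0426) and Edem1 (-0.25, SE 0.070, adjusted p = 0.0313) lost theirs in 7, 9 and 8 of the 12 fits without a library, with adjusted p up to 0.089, 0.0941 and 0.0803. Those fits were without any Bmal1 siRNA vehicle library for all 3 genes, without scrambled vehicle replicate 1 and scrambled TGFb replicate 3 for all 3, and otherwise without scrambled TGFb replicate 1 (Creb3l1, Ern1) or 2 (Ern1, Edem1), scrambled vehicle replicate 2 (Creb3l1) or 3 (Edem1), or Bmal1 siRNA TGFb replicate 2 (Ern1) or 3 (Ern1, Edem1). Creb3l1 and Ern1 also lost the call without a filter on low values (adjusted p = 0.0768 and 0.0765). Ern1 and Edem1 lost it without both second TGFb libraries (0.0905 and 0.0678). The interaction was not called for Atf6 (-0.05, adjusted p = 0.711), which rose under both siRNAs. Over the 36 genes the TGFb changes with each siRNA, which share no library, correlated at Pearson's r = 0.68 and Spearman's rho = 0.62, and over all 11208 genes at 0.75 and 0.63. The change was smaller in size after Bmal1 siRNA for 25 of the 36 genes (69.4%), close to the 68.6% of all tested genes.

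**Figure D3:**
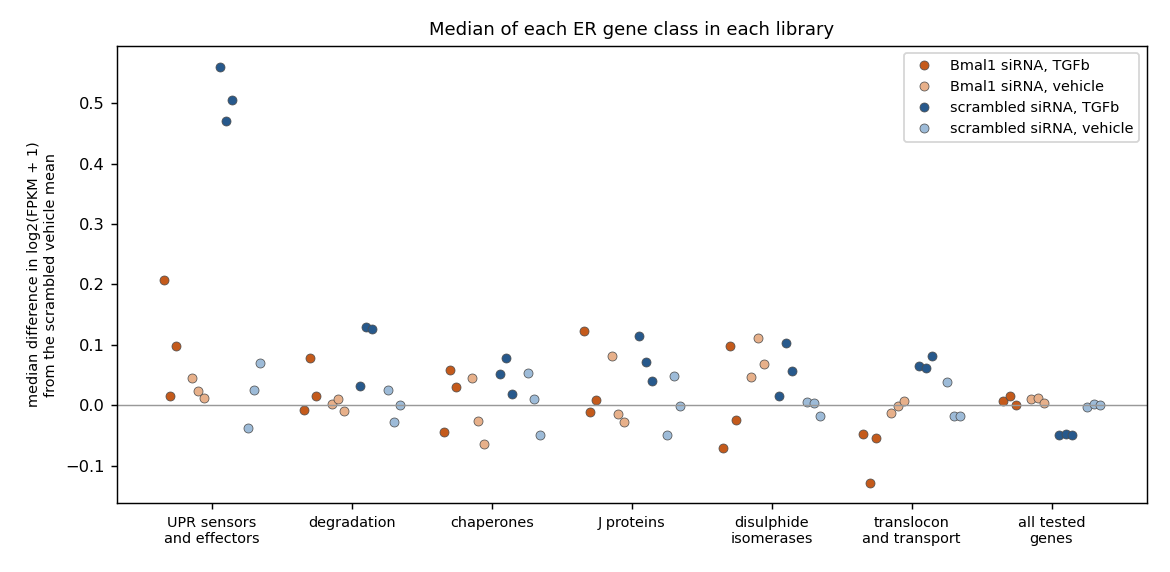
Median of each ER gene class in each library, as the difference in log2(FPKM + 1) from the scrambled vehicle mean of each gene. Orange and light orange points are Bmal1 siRNA TGFb and vehicle libraries, blue and light blue points scrambled TGFb and vehicle libraries, and the last class is all tested genes. Sensors and effectors lie at 0.02 to 0.21 in Bmal1 siRNA TGFb libraries and at 0.47 to 0.56 in scrambled TGFb libraries; the chaperone medians overlap between groups.

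By class, the median of the 7 sensors and effectors relative to scrambled vehicle cells was 0.21, 0.02 and 0.10 in Bmal1 siRNA TGFb libraries, 0.05, 0.02 and 0.01 in Bmal1 siRNA vehicle libraries, and 0.56, 0.47 and 0.51 in scrambled TGFb libraries. The lowest of the first group was again the second library. For the 8 chaperones the medians were -0.04, 0.06 and 0.03 in Bmal1 siRNA TGFb libraries and 0.05, 0.08 and 0.02 in scrambled TGFb libraries, which overlap. The summed FPKM of the 37 genes, dominated by chaperones and isomerases, was 4289 to 4440 in Bmal1 siRNA TGFb libraries, 4459 to 4523 in Bmal1 siRNA vehicle libraries, 4681 to 4859 in scrambled TGFb libraries and 4351 to 4476 in scrambled vehicle libraries.

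Without TGFb, limma called none of the 36 genes after Bmal1 siRNA, against 0.294% of all genes higher and 0.366% lower (0.66% together; 0.366% higher and 0.232% lower with equal totals). The all-gene share was unstable: 4.82% with a replicate block, 3.63% without both second TGFb libraries, 2.04% with only the groups compared and 0.0445% without a filter. Among fits without 1 library it was 4.22% without Bmal1 siRNA TGFb replicate 2, 0.0178% without Bmal1 siRNA vehicle replicate 3 or scrambled vehicle replicate 1, 0.0268% without Bmal1 siRNA vehicle replicate 2 or scrambled vehicle replicate 3, 0.214% without Bmal1 siRNA TGFb replicate 3, and 0.107% and 0.41% without scrambled TGFb replicate 3 and 2. At an unadjusted p under 0.05 there were 7, 5 higher and 2 lower, that is 19.4% against 21.7% of all genes. Hsp90b1, the ER paralogue of HSP90, had the largest difference upward. Of its exon bases 415 are shared with the opposite-strand pseudogene 1810014B01Rik, which cannot be told apart where strand use is not stated. Hsp90b1 had 328, 362 and 342 FPKM in Bmal1 siRNA vehicle cells, against 293, 303 and 298 FPKM in scrambled vehicle cells, with no overlap (change 0.20, SE 0.058, adjusted p = 0.0931). It was called without Bmal1 siRNA TGFb replicate 2 (adjusted p = 0.0362), without both second TGFb libraries (0.043) and with the replicate number as a block (0.0315). The other changes ran from -0.22 (Sec61b) to 0.17 (Creb3l2).

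Other genes of the same pathway, from lists of fixed membership, moved in both directions. The all-gene shares to set beside their counts are 16.4% higher and 29.1% lower for TGFb in scrambled cells, and 16% higher and 7.16% lower for the siRNA under TGFb. Of 14 tested genes of UPR signalling 5 rose and 5 fell with TGFb in scrambled cells (35.7% each, median 0.09). The rises included targets of the PERK branch factor ATF4: the pseudokinase gene Trib3 (95.7 ± 5.64 FPKM in scrambled TGFb cells and 36.2 ± 1.67 FPKM in scrambled vehicle cells, change 1.38) and the glutathione-degrading Chac1 (0.62), with Atf4 itself (0.49); Atf6b, the paralogue of Atf6, fell (-0.48). Under TGFb the Bmal1 siRNA raised 4 of the 14 (28.6%) and lowered 2 (14.3%, median -0.05). Crebrf (0.41) and Creb3l3 (0.27) were higher, and Trib3 (-0.37) and Chac1 (-0.30) lower. The 2 higher genes had low levels. Crebrf averaged 2.35 ± 0.266 FPKM in Bmal1 siRNA TGFb cells and 1.52 ± 0.114 FPKM in scrambled TGFb cells. Creb3l3, near the minimum mean of 0.5 FPKM, averaged 0.857 ± 0.140 FPKM in Bmal1 siRNA TGFb cells and 0.537 ± 0.140 FPKM in scrambled TGFb cells. Atf4 averaged 408 ± 35.3 FPKM in Bmal1 siRNA TGFb cells and 448 ± 7.95 FPKM in scrambled TGFb cells, and Ddit3, the stress factor CHOP, 26.8 ± 0.624 FPKM in Bmal1 siRNA TGFb cells and 27.9 ± 2.25 FPKM in scrambled TGFb cells; neither was called.

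Of 28 genes of ER import and N-glycosylation 7 rose (25%) and 3 fell (10.7%) with TGFb in scrambled cells (median 0.03), with the signal peptidase subunit gene Sec11c up (0.37), and the small translocon subunit Sec61g (-0.44), the signal peptidase subunit Spcs1 (-0.34) and the oligosaccharyltransferase subunit Dad1 (-0.22) down. Of these 28 the Bmal1 siRNA under TGFb lowered 3 (10.7%), Sec11c (-0.50) and both subunits of the signal recognition particle receptor, Srpr (-0.21) and Srprb (-0.19), and raised none, with 2 higher at an unadjusted p under 0.05 (median -0.02). Of 32 COPII, COPI and cargo receptor genes 5 rose (15.6%, near the background) and 4 fell (12.5%) with TGFb in scrambled cells (median 0.01). They included the lectin cargo receptor Lman1 (0.35) and the coat subunit Sec31a (0.22) up and Tmed3 (-0.32) and Copz1 (-0.28) down. The siRNA under TGFb raised 1 of them (3.12%), Kdelr1 (0.17), and lowered 3 (9.38%, near the background), Sec31a (-0.17), Sec13 (-0.17) and Lman1 (-0.14), with a median of -0.03.

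Of 21 other folding enzymes 6 rose (28.6%) and 3 fell (14.3%) with TGFb in scrambled cells (median 0.10), with the oxidase gene Ero1l (0.71), Pdia5 (0.35), Txndc12 (-0.29) and Fkbp14 (-0.28) the largest. The collagen chaperone gene Serpinh1 also rose (0.21) and was chosen for mention after its value was seen. The siRNA under TGFb lowered 1 of the 21 (4.76%), Fkbp11 (-0.22), and raised none, with 1 higher at an unadjusted p under 0.05 (median 0.00). Of 19 other quality control and degradation genes 1 rose (5.26%), the glycoprotein folding sensor Uggt1 (0.23), and 1 fell (5.26%), the segregase Vcp (-0.17), with a median of 0.04; the siRNA under TGFb raised Man1b1 (0.18) and lowered none, with 1 lower at an unadjusted p under 0.05 (median -0.03). These medians stand beside -0.05 for all genes with TGFb in scrambled cells and 0.06 with the siRNA under TGFb.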

How the data were processed

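RNA of 12 EMS404 libraries was measured, 3 in each of 4 groups taken from the sample titles. The series text calls them biological triplicates, but no label names separate cultures, so p-values measure the spread between these libraries, which may be in part technical. Expression was deposited as FPKM with 2 decimals, per the file headers. The submitters' processing notes list HISAT2 2.0.4 and Bowtie2 2.2.5, the build mm10, DESeq2 and RSEM, with no role stated. Strand use, annotation and depth are not stated there. Each FPKM value is relative to library size, so a change of abundant genes shifts the rest.

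Of 16290 lines, 555 without a gene identifier (1.304% to 1.464% of a library's total) were left out, and for 15 repeated identifiers the line with the higher mean was kept. Symbols and coordinates came from GENCODE M21 (mm10), matching 15694 of 15720 identifiers, and promoter windows from RefSeq (GRCm38.p6). No window was used for Atf6, Creb3l1, Derl1, Hyou1, Kdelr2, Manf and Sec61a1. Of the 37 genes, 12 share exon bases with another annotated gene, 7 of these with a coding one.

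The tests used limma 3.58.1 (R 4.3.3) on log2(FPKM + 1), two-sided, fitting group means over all 12 libraries with an intensity trend. A minimum mean of 0.5 FPKM left 11208 genes. Changes on this scale understate those of low genes. On simulated data with known changes among 11208 genes, the fits recovered 91% of changes of 0.5 for TGFb with scrambled siRNA, 94% for Bmal1 siRNA given TGFb and 77.6% for the interaction. The simulated noise was independent between libraries and few genes changed, unlike in these data. No change under 0.5 was simulated, so these rates do not show that uncalled genes were unchanged. Alternatives were other pseudocounts, filters and scalings, no trend, a replicate block, only the groups compared and each library left out in turn. Of the ER genes, those called for the siRNA under TGFb or in the interaction are given with values of single libraries, in some or all groups. So are the 8 largest called TGFb changes in scrambled cells, and Hsp90b1 under vehicle, which met neither rule. From the other lists up to 4 called genes per comparison are named. Where groups are said not to overlap, this describes the values of the named gene and adds no evidence to its call. The share of all genes with groups so separated was not computed. The genes and lists were chosen with earlier results of these data known, so their counts describe them and are not independent evidence.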

Additional observations from a re-analysis of the deposited data

Results flagged for a closer look

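The TGFb response differed between Bmal1 siRNA and scrambled siRNA cells by limma's interaction test for 9 of the 36 ER genes (25%) and 10 of 114 tested genes of the other pathway lists (8.77%), against 14.4% of all tested genes. The share in the other lists lay below that of all genes. The differences (response after Bmal1 siRNA minus response with scrambled siRNA, log2(FPKM + 1)) were -0.75 for Creb3l2, -0.52 for Creb3l1, -0.49 for Ppp1r15a, -0.46 for Xbp1, -0.40 for Ern1, -0.28 for Herpud1, -0.27 for Hspa5, -0.25 for Sec24d and -0.25 for Edem1. Among the other genes they were -0.997 for Ero1l, -0.67 for Trib3, -0.37 for Chac1, -0.31 for Sec11c, -0.24 for Lman1 and -0.20 for Copb2. They were positive for Atf6b (0.44), Tmed3 (0.36), Sec61g (0.31) and Kdelr1 (0.19), all of which had lower averages with TGFb in scrambled cells. Ero1l differed mostly under vehicle, at 25.7 ± 5.83 FPKM with Bmal1 siRNA and 14.6 ± 1.97 FPKM with scrambled siRNA (change 0.76, adjusted p = 0.0581, not called). Under TGFb it averaged 20.5 ± 2.14 FPKM with Bmal1 siRNA and 24.7 ± 5.43 FPKM with scrambled siRNA (change -0.24, adjusted p = 0.332, not called).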

How the results depend on the processing

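Over 22 alternative settings the changes of the 36 tested genes altered sign 105 times in 3924 values, never where either value was called. For TGFb with scrambled siRNA, 14 genes were called higher without each library in turn and 0 to 2 lower; 1 was lower with median-of-ratios scaling and 1 with equal totals. For the siRNA under TGFb 8 to 12 were lower without a library, and for the interaction 6 to 10. For TGFb after Bmal1 siRNA 0 to 6 were higher and 0 to 7 lower without a library. There 2 were higher with only the groups compared, 0 were lower without a filter, with median-of-ratios scaling, without a trend, with only the groups compared or with a replicate block, 2 were lower with equal totals, and without both second TGFb libraries 5 were lower. For the siRNA under vehicle 1 was higher with a replicate block, 1 without both second TGFb libraries, and 0 to 1 without a library. After Bmal1 siRNA the uncalled TGFb changes of Hspa5 (-0.0332 to 0.0371), Edem1 (-0.0235 to 0.00391) and Xbp1 (-0.109 to 0.00277) turned sign in fits without a library. The cause of these shifts was not tested.

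No label states that the replicate numbers pair libraries. Deviations from group means correlated at over 0.1 in 8 of 18 pairs of the same number (-0.161 to 0.475). The highest values joined the replicate 1 libraries of all groups but scrambled vehicle (0.370 to 0.475). In 20 of 36 comparisons a library matched its own number best. Whether libraries share an effect by number was not tested, and the main fit has no such term. A replicate block moved the share of all genes called for the siRNA under vehicle from 0.66% to 4.82%. With the replicate block the siRNA under TGFb lowered 13 ER genes instead of 11, against 8.11% of all genes instead of 7.16%. The interaction stayed at 9 lower, against 6.23% of all genes instead of 5.52%. Depth is unknown, which limits what can be said of the lowest genes.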
